A study of Mus musculus with 24 samples.

Results

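Oxidative phosphorylation is the last stage of aerobic ATP production, in which electrons pass through 4 complexes of the inner mitochondrial membrane and the proton gradient they build drives ATP synthase, also called complex V. The nuclear genes of these complexes were taken here as the gene-level clusters of an exon array whose single gene symbol starts with *Nduf*, *Uqcr*, *Cox4* to *Cox8* or *Atp5*, or is *Sdha*, *Sdhb*, *Sdhc* or *Sdhd*. This rule uses gene names only, and it found 60 of 23332 clusters. Of these, 27 encode subunits of complex I, 4 of complex II, 5 of complex III, 10 of complex IV and 8 of complex V, and 6 are complex I assembly factors (*Ndufaf*). The current annotation of the mouse genome holds 96 protein-coding genes of such names, so that 36 had no cluster of their own among those used.

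The arrays came from *Usp15*-deficient and wild-type C57BL/6 mice at 1 month of age, with 3 arrays each for *Usp15*-deficient skeletal muscle, wild-type skeletal muscle, *Usp15*-deficient cerebellum and wild-type cerebellum. USP15 is a deubiquitinating enzyme, and the study set out to learn how its loss changes transcripts and their splicing. The labels do not say which muscle was taken or how *Usp15* was disrupted, and they do not state whether the 3 arrays of a group stem from different mice. The p-values therefore cover only array-to-array spread within a group, which may be technical. All values are log2 signals as deposited by the authors, so that a difference of 1 is a change of 2-fold, and the number of arrays limits the precision.

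The respiratory chain is known for its dependence on tissue. Complex I takes electrons from NADH, complex II from succinate, complex III passes them to cytochrome c, and complex IV, cytochrome c oxidase, reduces oxygen. Several small subunits of complex IV exist in a form found in heart and skeletal muscle and a form found in liver, brain and most other tissues, encoded by separate genes.

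The labels of the tissues fitted their markers. All 6 measured fast-fibre genes were higher in muscle and all 7 measured granule and Purkinje neuron genes were lower in muscle in both genotypes. The *Usp15* cluster read 6.73, 6.81 and 6.86 in *Usp15*-deficient muscle and 8.43, 8.92 and 8.65 in wild-type muscle, and 7.08, 6.99 and 7.19 in *Usp15*-deficient cerebellum and 7.63, 7.51 and 7.66 in wild-type cerebellum. It lay below wild type on every *Usp15*-deficient array, with a difference of -1.87 in muscle (adjusted p = 0.273, limma) and -0.52 in cerebellum (adjusted p = 0.996, limma), and neither passed the threshold of 0.05. In muscle, 2 wild-type arrays stood apart in genes of slow fibres, and *Usp15*-deficient muscle array 2 in genes of fat and myelin. The median of 5 slow-fibre genes was 9.04, 9.17 and 9.24 in *Usp15*-deficient muscle and 5.39, 5.60 and 9.80 in wild-type muscle, whereas the median of the fast-fibre genes lay between 12.9 and 13.0 on all 6 muscle arrays. The median of 6 fat genes was 5.40, 7.72 and 5.99 in *Usp15*-deficient muscle and 6.10, 6.49 and 6.45 in wild-type muscle, and that of 5 myelin genes 6.54, 7.89 and 6.99 in *Usp15*-deficient muscle and 6.39, 6.66 and 6.60 in wild-type muscle. The array medians differed between tissues, at 5.41 to 5.51 in muscle and 6.09 to 6.17 in cerebellum.

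The promoters of 3 cytochrome c oxidase genes are shown because the tissue results turn on them. *Cox8b* and *Cox8a* encode the muscle-type and the ubiquitous form of subunit 8, and *Cox6a1* the ubiquitous form of subunit 6a. The windows run from 250 bases before to 50 bases after the start of the gene in RefSeq (GRCm38.p6, minus strand, written in the direction of transcription), and lie at chr7:140900397-140900696 for *Cox8b*, chr5:115348909-115349208 for *Cox6a1* and chr19:7217567-7217866 for *Cox8a*. Capitals mark letters of 4 motifs searched on both strands. The first is the nearly palindromic consensus of nuclear respiratory factor 1 (NRF1), a regulator of mitochondrial genes. Sites of ETS factors were searched as CCGGAAG. The TATA box, which places the start of transcription, was searched as TATAAA. E-boxes, which bind the myogenic factors among others, were searched as CANNTG.
Cox8b: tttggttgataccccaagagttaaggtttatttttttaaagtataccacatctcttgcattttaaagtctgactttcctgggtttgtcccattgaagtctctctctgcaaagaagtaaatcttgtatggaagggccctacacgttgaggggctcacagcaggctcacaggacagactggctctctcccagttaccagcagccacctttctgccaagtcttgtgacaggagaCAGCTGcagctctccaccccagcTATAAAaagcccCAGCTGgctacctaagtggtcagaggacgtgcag
Cox6a1: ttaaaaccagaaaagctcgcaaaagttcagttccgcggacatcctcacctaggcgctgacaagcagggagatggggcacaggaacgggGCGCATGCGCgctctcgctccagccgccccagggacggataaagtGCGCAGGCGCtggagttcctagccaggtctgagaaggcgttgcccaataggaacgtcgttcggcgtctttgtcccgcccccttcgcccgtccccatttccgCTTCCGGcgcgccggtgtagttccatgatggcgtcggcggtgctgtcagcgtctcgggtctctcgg
Cox8a: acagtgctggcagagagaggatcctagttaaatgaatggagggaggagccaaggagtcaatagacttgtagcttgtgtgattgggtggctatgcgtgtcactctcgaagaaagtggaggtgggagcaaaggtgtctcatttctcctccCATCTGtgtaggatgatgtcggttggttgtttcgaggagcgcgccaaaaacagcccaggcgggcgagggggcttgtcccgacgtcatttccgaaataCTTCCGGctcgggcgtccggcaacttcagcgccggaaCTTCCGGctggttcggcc
The *Cox8b* window holds 1 match to the TATA box letters and 2 E-boxes, and neither NRF1 nor ETS letters. The TATA box letters and 1 E-box lie in the 50 bases after the annotated start, and the other E-box lies before it. Whether these TATA box letters place a start of transcription was not tested. The *Cox6a1* window holds 2 NRF1 matches and 1 ETS match. The *Cox8a* window holds 2 ETS matches and 1 E-box. No matches overlapped within these windows.

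Windows were held for 49 of the 60 members, 52 windows in all. NRF1 letters stood in 23.08% of them, against 4.6% of all 32851 windows of the genome. ETS letters stood in 15.38%, against 8.86%, TATA boxes in 13.46%, against 13.62%, and E-boxes in 69.23%, against 72.31%. These shares count windows, describe letters in a window and say nothing of binding. The 12 member windows with NRF1 letters belong to 11 members, because overlapping windows of *Ndufa5* hold the same match. *Sdha*, the flavoprotein of complex II, held 3 NRF1 matches, *Uqcrc1*, a core subunit of complex III, held 2, and *Ndufa8*, a subunit of complex I, held 1. They are given with 5 bases on each side, the match in capitals and its place relative to the start, from the windows chr13:74350191-74350490 (minus strand), chr9:108936398-108936697 (plus strand) and chr2:36049289-36049588 (minus strand).
Sdha at -98: acaggGCGCAGGCGCaccac
Sdha at -55: gtgttGCGCAGGCGCagaat
Sdha at -10: tcggtGCGCAAGCGCagtct
Uqcrc1 at 5: ttacaGCGCTTGCGCctcag
Uqcrc1 at 30: gctctGCGCATGCGCagcgc
Ndufa8 at -30: gcagtGCGCTTGCGCgtcgc
Of the 11 members with NRF1 letters, 8 were called higher in muscle in each genotype, 2 were called lower (*Cox6a1* and *Ndufaf5*) and *Ndufa5* was not called. Of all 60 members, 83.3% were called higher in *Usp15*-deficient mice and 81.7% in wild type, and 5 were called lower in each. Of all clusters, 13.2% and 13.7% were called higher, in the same order. The 60 include these 11 and the members for which no window was held. Whether NRF1 letters go with a higher signal in muscle was not tested.

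Most members were higher in muscle than in cerebellum. In *Usp15*-deficient mice 50 of 60 were called higher and 5 lower (limma, adjusted p under 0.05, adjusted over all clusters), where 13.2% of all clusters were called higher and 57.3% lower. In wild type 49 were called higher and 5 lower, where 13.7% of all clusters were called higher and 56.6% lower. The median difference of the members, muscle minus cerebellum, was 1.16 in *Usp15*-deficient mice and 1.19 in wild type, against -0.62 for all clusters in each genotype. All 6 muscle arrays lay above all 6 cerebellum arrays for 48 members, a pattern found in 12.1% of all clusters, and below them for 3 (*Cox6a1*, *Cox7b2* and *Ndufaf5*), a pattern found in 48.7%. In bulk tissue, fewer cells of a type and less RNA per cell cannot be told apart.

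The scale of the arrays touches the small differences. On the deposited scale 3201 of all clusters were called higher and 13211 lower in wild-type muscle, with a median of -0.62, whereas after quantile normalization of all 12 arrays 6290 were called higher and 5517 lower, with a median of 0.01. In *Usp15*-deficient mice 6279 were called higher and 5546 lower after this normalization. Of the members, 52 were then called higher and 1 lower in each genotype, with a median of 1.10 in each. The member still called lower was *Cox6a1*.

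**Figure D1:**
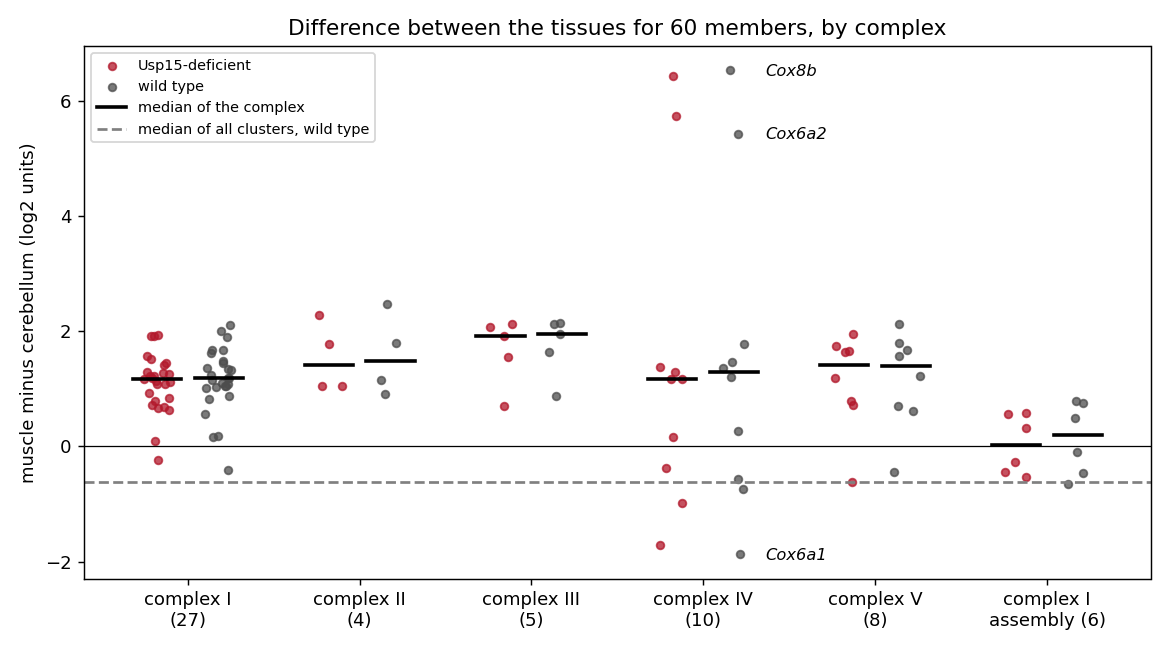
Difference between muscle and cerebellum (log2 units) for the 60 members, by complex, in *Usp15*-deficient mice (red) and wild type (grey); each point is a member, black bars are medians of the complex, and the dashed line is the median of all clusters in wild type (-0.62). Complexes I, II, III and V lie mostly between 0.5 and 2.5, and complex IV holds both the highest members, *Cox8b* and *Cox6a2*, and the lowest, *Cox6a1*.

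Complex I, which oxidises NADH, rose almost as a whole. In *Usp15*-deficient mice 25 of its 27 subunits were called higher in muscle and 0 lower, with a median of 1.16, and in wild type 24 were called higher and 0 lower, with a median of 1.19. *Ndufb9*, an accessory subunit of the membrane arm, had the largest wild-type difference. It read 11.39, 11.14 and 11.08 in *Usp15*-deficient muscle and 11.30, 11.28 and 11.16 in wild-type muscle, against 9.14, 9.39 and 9.34 in *Usp15*-deficient cerebellum and 9.16, 9.09 and 9.17 in wild-type cerebellum. The tissues did not overlap, and the difference was 1.91 ± 0.11 (SE) in *Usp15*-deficient mice and 2.11 ± 0.11 in wild type (adjusted p = 1e-07 and 4.57e-08, limma). *Ndufb5*, another membrane-arm subunit, differed by 1.92 and 1.99, and *Ndufa8* by 1.93 and 1.90, in *Usp15*-deficient and wild-type mice in this order. The catalytic core subunits *Ndufs1*, *Ndufv1*, *Ndufv2*, *Ndufs7* and *Ndufs8* differed by 1.05 to 1.37 in wild type.

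*Ndufa5*, *Ndufb11* and *Ndufv3* were the complex I subunits not called in wild type. *Ndufa5*, an accessory subunit, read 7.16, 7.11 and 7.24 in *Usp15*-deficient muscle and 7.12, 7.48 and 7.26 in wild-type muscle, against 6.94, 7.25 and 7.05 in *Usp15*-deficient cerebellum and 6.84, 7.26 and 7.25 in wild-type cerebellum, and the tissues overlapped (difference 0.09 ± 0.14 in *Usp15*-deficient mice and 0.17 ± 0.14 in wild type, adjusted p = 0.595 and 0.31, limma). After quantile normalization it was called higher (0.50 and 0.51). In each genotype 6 of its 7 probe sets were higher in muscle, with a median of 0.68 in *Usp15*-deficient mice and 0.50 in wild type. *Ndufv3*, a small subunit of the NADH-binding part, had the only negative value, -0.23 in *Usp15*-deficient mice and -0.40 in wild type (adjusted p = 0.294 and 0.0842, limma). Its 7 probe sets were split, with 4 higher in muscle and a median of 0.06 in *Usp15*-deficient mice and 0.07 in wild type. *Ndufb11*, another accessory subunit, had 0.67 ± 0.20 and 0.19 ± 0.20 (adjusted p = 0.0121 and 0.424, limma), but its cluster equals 1 probe set, the lowest of 7, and all 7 were higher in muscle, with a median of 1.59 in *Usp15*-deficient mice and 1.61 in wild type.

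Complex II, succinate dehydrogenase, is also an enzyme of the citric acid cycle, and its 4 subunits were all called higher in muscle in both genotypes. *Sdhb*, the iron-sulfur subunit, read 10.53, 10.34 and 10.30 in *Usp15*-deficient muscle and 10.21, 10.60 and 10.50 in wild-type muscle, against 8.18, 8.16 and 7.98 in *Usp15*-deficient cerebellum and 7.97, 7.96 and 7.97 in wild-type cerebellum. Every muscle array lay more than 2 units above every cerebellum array, and the difference was 2.28 ± 0.12 in *Usp15*-deficient mice and 2.47 ± 0.12 in wild type (adjusted p = 4.19e-08 and 2.19e-08, limma). *Sdhd*, a membrane anchor, differed by 1.78 ± 0.17 in *Usp15*-deficient mice and 1.80 ± 0.17 in wild type. *Sdha* and *Sdhc*, the flavoprotein and the other anchor, differed less, by 1.04 ± 0.11 and 1.05 ± 0.11 in *Usp15*-deficient mice and by 1.15 ± 0.11 and 0.91 ± 0.11 in wild type. At the gene level the subunits of complex II thus did not rise by equal amounts. The medians of the probe sets ordered them otherwise. In *Usp15*-deficient mice these medians were 0.95 for *Sdha*, 2.11 for *Sdhb*, 1.76 for *Sdhc* and 1.73 for *Sdhd*. In wild type they were 1.17, 2.28, 1.46 and 1.68 in the same order.

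All 5 members of complex III, the cytochrome bc1 complex, were called higher in muscle, with a median of 1.92 in *Usp15*-deficient mice and 1.94 in wild type. *Uqcrq*, a small subunit, read 10.62, 10.56 and 10.54 in *Usp15*-deficient muscle and 10.58, 10.66 and 10.69 in wild-type muscle, against 8.32, 8.57 and 8.43 in *Usp15*-deficient cerebellum and 8.24, 8.52 and 8.73 in wild-type cerebellum, a difference of 2.13 ± 0.12 in *Usp15*-deficient mice and 2.15 ± 0.12 in wild type (adjusted p = 1.12e-07 and 1.07e-07, limma). *Uqcr10*, another small subunit, differed by 2.07 and 2.12 and *Uqcrc1* by 1.92 and 1.94. *Uqcrfs1*, the Rieske iron-sulfur protein, had the smallest difference, 0.69 ± 0.14 in *Usp15*-deficient mice and 0.88 ± 0.14 in wild type (adjusted p = 0.000981 and 0.000199, limma).

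Complex V, ATP synthase, had 7 of 8 members called higher in muscle in each genotype. *Atp5e*, the epsilon subunit, read 9.48, 9.73 and 9.50 in *Usp15*-deficient muscle and 9.48, 9.79 and 9.57 in wild-type muscle, against 7.53, 7.70 and 7.64 in *Usp15*-deficient cerebellum and 7.64, 7.19 and 7.62 in wild-type cerebellum, a difference of 1.95 ± 0.14 in *Usp15*-deficient mice and 2.13 ± 0.14 in wild type (adjusted p = 6.89e-07 and 3.42e-07, limma). *Atp5mpl*, a small membrane subunit, differed by 1.74 and 1.80, and *Atp5a1*, the alpha subunit of the catalytic head, by 1.63 and 1.67. *Atp5b*, the catalytic beta subunit, read 12.53, 12.45 and 12.39 in *Usp15*-deficient muscle and 12.32, 12.39 and 12.49 in wild-type muscle, against 11.42, 11.80 and 11.78 in *Usp15*-deficient cerebellum and 11.51, 11.76 and 11.84 in wild-type cerebellum. Its difference was 0.80 ± 0.13 in *Usp15*-deficient mice and 0.70 ± 0.13 in wild type (adjusted p = 0.000293 and 0.000709, limma). It kept its sign but not its call after quantile normalization, at 0.20 and 0.17.

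The 6 complex I assembly factors, which build the complex without being part of it, did not move like the subunits. In each genotype 3 were called higher, and their median was 0.03 in *Usp15*-deficient mice and 0.20 in wild type. *Ndufaf1* and *Ndufaf4* differed by 0.57 and 0.59 in *Usp15*-deficient mice and by 0.75 and 0.78 in wild type. *Ndufaf5* was lower in muscle, with -0.52 in *Usp15*-deficient mice and -0.47 in wild type (adjusted p = 0.00818 and 0.0148, limma), and *Ndufaf2* had -0.45 in *Usp15*-deficient mice and -0.64 in wild type, where it was called lower (adjusted p = 0.103 and 0.0281, limma). *Ndufaf7* had the smallest difference, -0.26 and -0.10. The median of all clusters, at -0.62, lay below the differences of *Ndufaf5* and *Ndufaf7* and near that of *Ndufaf2* in wild type.

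Complex IV carried the sharpest contrasts. It held 6 members called higher in muscle and 3 called lower in each genotype. The 3 were *Cox6a1*, *Cox7b* and *Cox7b2*, and only *Cox6a1* was still called lower after quantile normalization. Most probe sets of *Cox7b* were higher in muscle, and *Cox7b2* rests on dim signal, as given below. *Cox8b*, the muscle-type form of subunit 8, read 12.37, 12.35 and 12.23 in *Usp15*-deficient muscle and 12.26, 12.41 and 12.29 in wild-type muscle, against 5.68, 5.77 and 6.22 in *Usp15*-deficient cerebellum and 5.55, 5.94 and 5.87 in wild-type cerebellum. The difference was 6.43 ± 0.15 in *Usp15*-deficient mice and 6.53 ± 0.15 in wild type (adjusted p = 8.58e-11 and 7.7e-11, limma), but the cerebellum values lie around 5.79, the level below which 95% of 713 olfactory receptor clusters lay in cerebellum, which serves here as a mark of dim signal. With cerebellum arrays below the mark raised to it, *Cox8b* was at least 83.4-fold higher in *Usp15*-deficient muscle and at least 87.3-fold higher in wild-type muscle.

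*Cox6a2*, the heart and muscle form of subunit 6a, read 12.63, 12.39 and 12.09 in *Usp15*-deficient muscle and 12.10, 12.47 and 12.07 in wild-type muscle, against 6.55, 6.72 and 6.64 in *Usp15*-deficient cerebellum and 6.69, 6.69 and 6.98 in wild-type cerebellum. It was higher in muscle by 5.73 ± 0.16 in *Usp15*-deficient mice and 5.43 ± 0.16 in wild type (adjusted p = 2.8e-10 and 4.12e-10, limma). *Cox6a1*, the form of most other tissues, went the other way. It read 7.76, 8.54 and 8.47 in *Usp15*-deficient muscle and 7.97, 7.96 and 8.47 in wild-type muscle, against 9.93, 10.07 and 9.91 in *Usp15*-deficient cerebellum and 10.06, 10.04 and 9.91 in wild-type cerebellum. It was lower in muscle, with a difference of -1.71 ± 0.21 in *Usp15*-deficient mice and -1.87 ± 0.21 in wild type (adjusted p = 3.18e-05 and 1.62e-05, limma), and all 6 of its exon-level probe sets were lower in wild-type muscle.

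Within an array, the log2 value of *Cox6a2* minus that of *Cox6a1* averaged 4.11 ± 0.67 in *Usp15*-deficient muscle and 4.08 ± 0.46 in wild-type muscle, against -3.33 ± 0.06 in *Usp15*-deficient cerebellum and -3.22 ± 0.25 in wild-type cerebellum (SD, n = 3 each). The level of such a ratio depends on the probes as well, and only its shift between tissues is compared. This shift was 7.37, and 7.06 from the medians of the exon-level probe sets. Each had p = 0.005 in an exact two-sided permutation test of the tissue within genotype, the smallest it can give, and 0.00875 after Benjamini-Hochberg adjustment over the 7 ratios tested.

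*Cox8a* had no gene-level cluster of its own, so that its probe sets were used. The median of its 4 probe sets read 9.39, 9.83 and 9.70 in *Usp15*-deficient muscle and 9.49, 9.32 and 9.63 in wild-type muscle, against 10.90, 10.91 and 10.85 in *Usp15*-deficient cerebellum and 10.87, 10.89 and 10.83 in wild-type cerebellum. All 4 probe sets were lower in muscle, with differences of -1.72 to -0.86 in *Usp15*-deficient mice and -1.62 to -1.09 in wild type. The ratio of *Cox8b* to *Cox8a* had a measured shift of 7.93 between the tissues (exact permutation p = 0.005, adjusted p = 0.00875). All 6 cerebellum values of *Cox8b* entering it lie below the exon-level mark of 6.14, and raised to that mark they give a shift of at least 7.44. In both pairs the muscle form was higher and the other form lower in muscle, in both genotypes.

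**Figure D2:**
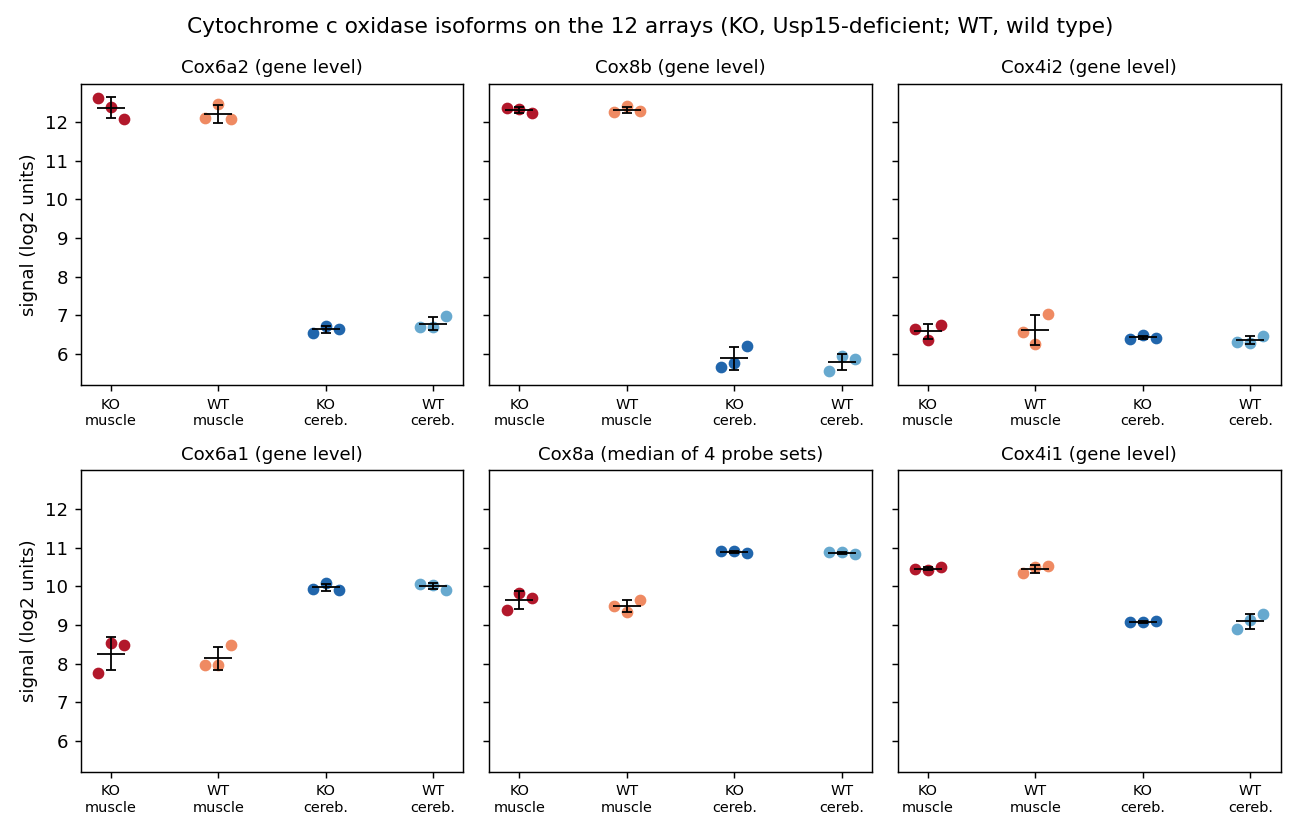
Log2 signal on each of the 12 arrays for *Cox6a2*, *Cox8b* and *Cox4i2* (top) and *Cox6a1*, *Cox8a* and *Cox4i1* (bottom), with the mean and SD of 3 arrays in black. *Cox6a2* and *Cox8b* stand above 12 in muscle, *Cox6a1* and *Cox8a* are lower in muscle than in cerebellum, and *Usp15*-deficient and wild-type arrays overlap in each tissue.

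Subunit 4, which is needed for assembly of the oxidase, has a common form, *Cox4i1*, and a form best known from lung, *Cox4i2*. *Cox4i1* read 10.45, 10.42 and 10.50 in *Usp15*-deficient muscle and 10.34, 10.50 and 10.52 in wild-type muscle, against 9.07, 9.07 and 9.10 in *Usp15*-deficient cerebellum and 8.88, 9.12 and 9.28 in wild-type cerebellum, higher in muscle by 1.38 ± 0.11 in *Usp15*-deficient mice and 1.36 ± 0.11 in wild type (adjusted p = 1.29e-06 and 1.47e-06, limma). *Cox4i2* overlapped between tissues, with 0.16 ± 0.17 and 0.26 ± 0.17 (adjusted p = 0.417 and 0.196, limma), but was called higher after quantile normalization (0.70 and 0.79). The ratio of *Cox4i2* to *Cox4i1* was lower in muscle, at -1.15 (exact permutation p = 0.005, adjusted p = 0.00875). *Cox6b1*, the common form of subunit 6b, was higher in muscle by 1.17 ± 0.21 and 1.47 ± 0.21. *Cox7b2* lay at or below the mark in both tissues, so that its ratio to *Cox7b* (-0.39, exact permutation p = 0.04, adjusted p = 0.0467) rests on dim signal. Subunit c of ATP synthase is encoded by 3 genes with the same mature protein. From exon-level medians the ratio of *Atp5g1* to *Atp5g2* shifted by 0.17 (exact permutation p = 0.09, adjusted p = 0.09) and that of *Atp5g1* to *Atp5g3* by 0.29 (exact permutation p = 0.03, adjusted p = 0.042), while *Atp5g3* itself was higher in muscle by 1.65 and 1.57. Neither ratio kept its size after quantile normalization (-0.13 and 0.06). *Cox7a1*, *Cox6b2*, *Ndufa4* and *Ndufa4l2* were not analysed here.

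The exon-level probe sets, each placed in part of an exon, gave a second reading of the same arrays. For the 49 members called higher in wild-type muscle, 370 of 385 probe sets (96.1%) were higher in muscle, where 30.7% of all probe sets were. These 49 were chosen by their gene-level calls on the same arrays, so that this agreement is no independent support for the calls. All probe sets were higher for 36 of these members, and most for all 49. The median over the probe sets of a gene was positive for 55 of 60 members.

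For 3 members the median of the probe sets went against the sign of the gene-level value, *Ndufv3* (above), *Cox7b* and *Atp5j2*. *Cox7b*, a small subunit of the oxidase, was called lower in muscle at the gene level, with -0.37 ± 0.14 in *Usp15*-deficient mice and -0.56 ± 0.14 in wild type (adjusted p = 0.0385 and 0.00557, limma), yet 7 of its 8 probe sets were higher in wild-type muscle, with a median of 1.35. Its probe set 5490814 read 10.71, 10.66 and 10.60 in *Usp15*-deficient muscle and 10.48, 10.90 and 10.69 in wild-type muscle, against 8.32, 8.25 and 8.24 in *Usp15*-deficient cerebellum and 8.52, 7.95 and 8.46 in wild-type cerebellum, and its only lower probe set, 5447013, read 4.22, 4.45 and 4.49 in *Usp15*-deficient muscle and 4.25, 3.99 and 3.22 in wild-type muscle, against 5.80, 6.04 and 5.60 in *Usp15*-deficient cerebellum and 5.80, 5.27 and 5.76 in wild-type cerebellum, all below the exon-level marks. The gene-level value of *Atp5j2*, the f subunit of ATP synthase, equalled that of 1 probe set, 4451242, with a difference of -0.62 in *Usp15*-deficient mice and -0.44 in wild type (adjusted p = 0.0333 and 0.112 at the gene level, limma), whereas its other 4 probe sets were higher by 1.23 to 1.81 in wild type. The gene-level direction of *Cox7b* and *Atp5j2* therefore does not hold for most of their probes. After quantile normalization *Cox7b* also turned positive at the gene level, at 0.35 and 0.21. The cluster also equalled a single probe set for *Ndufa7*, *Ndufb11*, *Ndufb3* and *Ndufs6*. *Ndufb3*, called higher at the gene level by 1.09 in *Usp15*-deficient mice and 1.03 in wild type, had 5 probe sets with a smaller median. This median was 0.28 in *Usp15*-deficient mice and 0.32 in wild type, and 2 of the 5 were lower in muscle in each genotype.

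The gamma subunit of ATP synthase, the rotor shaft, is encoded by *Atp5c1*, whose transcript is known to lose an exon in skeletal and heart muscle. It had no single gene-level cluster, and each probe set was therefore set against the median of the 9 probe sets of the gene. Of these, 8 were higher in muscle, by 1.11 to 2.10 in *Usp15*-deficient mice and by 0.97 to 2.15 in wild type. Probe set 5017410 was the exception. It read 4.86, 5.55 and 4.53 in *Usp15*-deficient muscle and 3.85, 3.92 and 5.51 in wild-type muscle, against 6.55, 6.31 and 6.44 in *Usp15*-deficient cerebellum and 6.80, 6.22 and 6.28 in wild-type cerebellum, and no muscle array reached the lowest cerebellum array. Its difference was -1.45 ± 0.40 in *Usp15*-deficient mice and -2.0 ± 0.40 in wild type (adjusted p = 0.00999 and 0.00139, limma over all probe sets).

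Relative to its gene, 5017410 differed by -3.00 ± 0.45 in *Usp15*-deficient mice and by -3.65 ± 0.45 in wild type (adjusted p = 0.00104 and 0.000274, limma). None of the other 8 probe sets of *Atp5c1* passed the threshold relative to the gene in either genotype, and the sources used here do not place 5017410 in the transcript. With any 1 array left out, the relative difference was -3.30 to -2.82 in *Usp15*-deficient mice and -4.21 to -3.33 in wild type. Between genotypes the relative value of 5017410 differed by 0.53 ± 0.52 in muscle and by -0.12 ± 0.30 in cerebellum (adjusted p = 1 in each, limma). All 6 cerebellum values lie above 6.14, the level below which 95% of 2153 olfactory receptor probe sets lay in cerebellum, and 4 of the 6 muscle values lie below the same mark for muscle, 5.51, with the other two at 5.51 and 5.55.

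**Figure D3:**
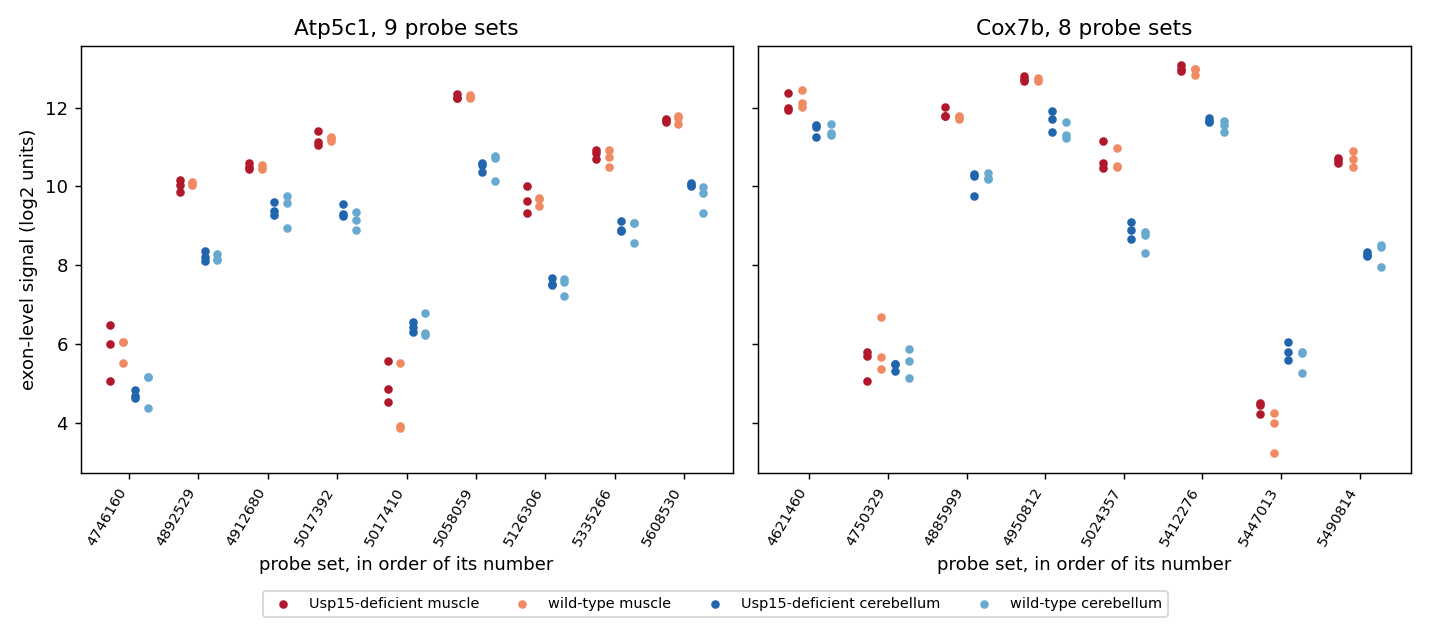
Exon-level log2 signal of each probe set of *Atp5c1* (left, 9 probe sets) and *Cox7b* (right, 8 probe sets) on the 12 arrays, coloured by group. In *Atp5c1* all probe sets but 5017410 have a higher mean in muscle, and in *Cox7b* all but 5447013 do.

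Over all members, 462 probe sets were tested relative to the gene-level value. In *Usp15*-deficient mice 58 were called higher and 42 lower in muscle, where 10.7% of all probe sets tested were called higher and 9.69% lower. In wild type 63 were called higher and 46 lower, where 11.3% of all probe sets tested were called higher and 10.2% lower. With the median of the gene's probe sets as the reference, 19 were called higher in each genotype, where 7.84% of all probe sets tested were in *Usp15*-deficient mice and 8.31% in wild type. The called probe set of largest wild-type deviation in complex III was 4991664 of *Uqcrq*, which read 5.74, 5.13 and 6.23 in *Usp15*-deficient muscle and 5.72, 6.14 and 5.52 in wild-type muscle, against 6.64, 6.68 and 6.48 in *Usp15*-deficient cerebellum and 6.78, 6.67 and 6.53 in wild-type cerebellum. Its wild-type difference was -0.87, against 2.15 for the gene, and its muscle values, 5.13 to 6.23, lie around the mark. That of complex II, 4647029 of *Sdhb*, did not follow its gene (0.09 in wild type against 2.47), and all its values lie below the marks. That of complex IV was 5490814 of *Cox7b* (above). Probe sets 5131296 of *Ndufs1* and 4780967 of *Ndufaf5* were lower relative to their gene in wild type, but all their values lie below the marks, and the first did not pass in *Usp15*-deficient mice (-1.05, adjusted p = 0.237, limma). Probe set 5169092 of *Atp5e* was higher relative to its gene by 0.92 in *Usp15*-deficient mice and 2.33 in wild type (adjusted p = 0.244 and 0.00856, limma), with all cerebellum values below the mark.

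Genes around the chain differed between the tissues in both directions. Of all clusters, 13.2% were called higher in muscle and 57.3% lower in *Usp15*-deficient mice. In wild type these shares were 13.7% and 56.6%. All 12 measured enzymes of the citric acid cycle were called higher in muscle in both genotypes, with a median of 1.62 in *Usp15*-deficient mice and 1.56 in wild type. *Cs*, citrate synthase, differed by 1.80 and 1.67. Of 6 measured electron carriers and their enzymes 5 were called higher, among them *Etfb*, of the electron transfer flavoprotein, by 2.77 and 2.84, and *Cyc1*, cytochrome c1, by 1.46 and 1.39, and *Dhodh*, dihydroorotate dehydrogenase, was called lower (-0.53 and -0.56). Of 5 carriers, uncoupling proteins and the ATP synthase inhibitor, 3 were called higher in each genotype, among them *Slc25a4*, the muscle-type ADP/ATP carrier, by 2.18 and 2.35. *Atpif1*, the inhibitor, was called lower in both genotypes (-0.61 and -0.53), and *Ucp1* in wild type only (-0.11 and -0.47), on values below the dim marks in cerebellum and near or below them in muscle, which is no test of a difference between genotypes. Assembly factors outside the *Ndufaf* genes were called higher for 14 of 26 in *Usp15*-deficient mice, with 2 lower, and for 15 of 26 in wild type, with 0 lower, and their median was 0.44 and 0.43. Of 13 measured regulators of mitochondrial genes, 5 were called higher and 4 lower in each genotype. *Ppargc1a*, a coactivator, differed by 0.53 and 0.56, *Ppara* by 1.11 and 1.10, *Nrf1* by -0.39 and -0.36 and *Esrrg* by -0.89 and -1.32. The values of *Nrf1*, *Dhodh*, *Atpif1* and *Ucp1* lay above the median of all clusters, -0.62.

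*Usp15* deficiency changed none of the 60 members past the threshold in either tissue. In muscle 0 members were called (limma), with 0 at an unadjusted p under 0.05, and 0 of 23332 clusters were called (0%), with 720 at an unadjusted p under 0.05. In cerebellum 0 members were called (limma), with 0 at an unadjusted p under 0.05, and 0 clusters (0%), with 825 at an unadjusted p under 0.05. The median change of the members, *Usp15*-deficient minus wild-type, was -0.01 in muscle, with 24 positive and 36 negative, against 0.01 for all clusters, and 0.06 in cerebellum, with 42 positive and 18 negative, against 0.04 for all clusters. With an array left out, the muscle median took either sign, from -0.06 without wild-type array 1 to 0.03 without wild-type array 3, and 0 members were called without *Usp15*-deficient array 2. The part of fat and myelin signal in the muscle values was not tested. Changes ranged from -0.23 to 0.41 in muscle and from -0.20 to 0.32 in cerebellum. The 95% intervals kept all 60 members within 1 log2 unit of no change in each tissue, and 43 members in muscle and 48 in cerebellum within 0.5.

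**Figure D4:**
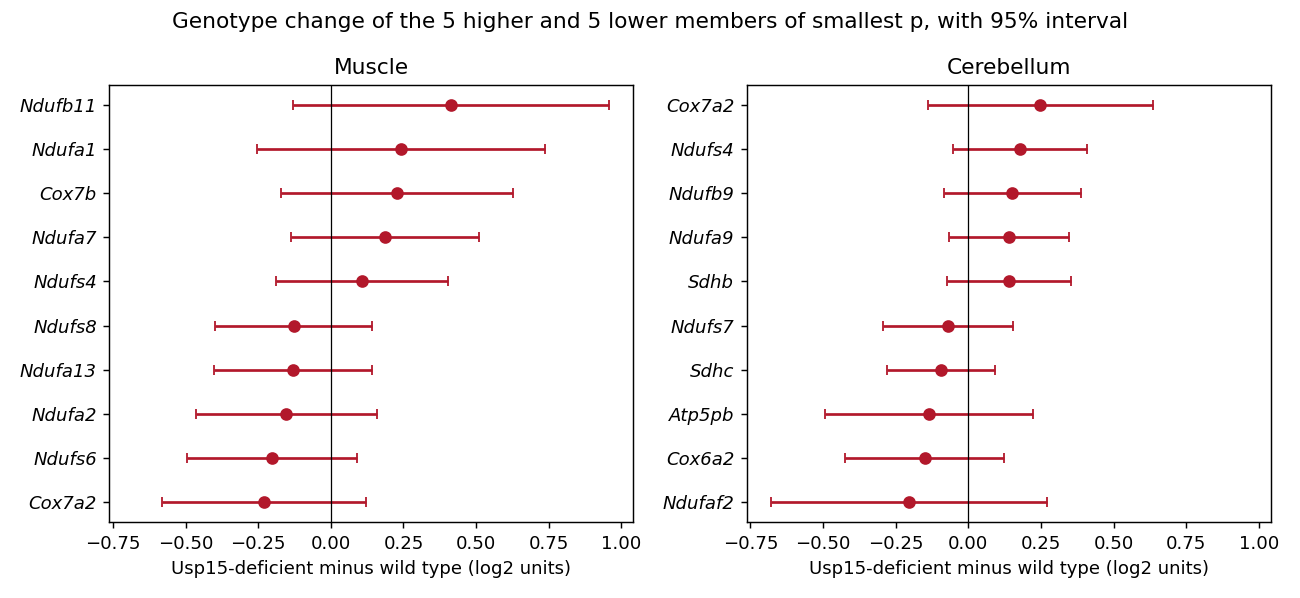
Difference between *Usp15*-deficient and wild-type arrays (log2 units) with the 95% confidence interval of limma, for the 5 higher and 5 lower members of smallest p in muscle (left) and cerebellum (right). Every interval includes 0.

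In muscle the lowest p among members was that of *Ndufb11*. It read 7.03, 6.55 and 6.28 in *Usp15*-deficient muscle and 6.00, 6.16 and 6.45 in wild-type muscle, a change of 0.41 (95% interval -0.13 to 0.96, adjusted p = 0.9999, limma). *Cox7a2*, the common form of subunit 7a, read 6.83, 7.25 and 7.13 in *Usp15*-deficient muscle and 7.22, 7.31 and 7.37 in wild-type muscle, a change of -0.23 (-0.58 to 0.12). *Ndufs6*, of the peripheral arm of complex I, was the only member below wild type on every *Usp15*-deficient muscle array, a pattern of 2.97% of all clusters. It read 8.64, 8.64 and 8.78 in *Usp15*-deficient muscle and 8.81, 8.83 and 9.03 in wild-type muscle, a change of -0.20 (-0.49 to 0.09). No member was above wild type on every *Usp15*-deficient muscle array, where 3.38% of all clusters were. The clusters of *Ndufb11* and *Ndufs6* each equal 1 of 7 probe sets, so that these readings rest on that probe set alone. The other named members, *Ndufa7*, *Cox7b*, *Ndufa1*, *Ndufs4*, *Ndufa2*, *Ndufa13* and *Ndufs8*, had values from -0.15 to 0.24.

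In cerebellum *Ndufa3*, *Ndufa9*, *Ndufs4* and *Sdhb* were above wild type on every *Usp15*-deficient array, 4 of 60 members where 5.85% of all clusters were, and *Sdhc* was below, 1 member where 3.05% of all clusters were. *Ndufa9*, an accessory subunit of complex I, read 8.50, 8.50 and 8.50 in *Usp15*-deficient cerebellum and 8.28, 8.47 and 8.34 in wild-type cerebellum, a change of 0.14 (95% interval -0.07 to 0.35, adjusted p = 0.996, limma). *Sdhb* read 8.18, 8.16 and 7.98 in *Usp15*-deficient cerebellum and 7.97, 7.96 and 7.97 in wild-type cerebellum and changed by 0.14 (-0.07 to 0.35), whereas *Sdhc* read 8.40, 8.30 and 8.33 in *Usp15*-deficient cerebellum and 8.41, 8.44 and 8.46 in wild-type cerebellum and changed by -0.09 (-0.28 to 0.09). The shares of members without overlap lay near those of all clusters. *Ndufs4*, *Cox7a2*, *Ndufb9*, *Cox6a2*, *Ndufaf2*, *Atp5pb* and *Ndufs7*, the other members named for this tissue, had values from -0.20 to 0.25.

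The change with genotype was not shown to differ between the tissues for any member. The interaction of genotype and tissue called 0 of 60 (limma, 0 at an unadjusted p under 0.05) and 0 of 23332 clusters (0%, 679 at an unadjusted p under 0.05), and its median was -0.08 for the members and -0.02 for all clusters (-0.13 to -0.04 for the members with an array left out). Its smallest p values were those of *Cox7a2* (-0.48, 95% interval -0.96 to 0.01), *Ndufb11* (0.49, -0.15 to 1.12) and *Ndufa2* (-0.22, -0.56 to 0.12), with an adjusted p of 0.9999 for each. The isoform exchange was present in both genotypes, at 7.45 in *Usp15*-deficient mice and 7.30 in wild type for *Cox6a2* over *Cox6a1*.

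*Ndufa11*, an accessory membrane subunit of complex I, had no gene-level cluster of its own and 3 probe sets. Probe set 5037775 read 11.65, 10.84 and 10.66 in *Usp15*-deficient muscle and 11.16, 10.77 and 10.75 in wild-type muscle, against 10.56, 10.23 and 10.14 in *Usp15*-deficient cerebellum and 10.28, 10.36 and 10.13 in wild-type cerebellum. It was higher in muscle by 0.74 and 0.63 (adjusted p = 0.0288 in *Usp15*-deficient mice and 0.0539 in wild type, limma over all probe sets), and 5260843 by 1.49 and 1.49 (adjusted p = 0.0011 and 0.00108, limma). Between genotypes the 3 probe sets differed by 0.11, 0.16 and 0.30 in muscle and by 0.05, 0.05 and 0.30 in cerebellum, each with an interval that includes 0. No probe set of the 60 members changed with genotype relative to its gene (0 of 462 in each tissue, where 0.00105% of all probe sets tested were called).

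Between arrays of a group the members had a median SD of 0.12 in *Usp15*-deficient muscle, 0.16 in wild-type muscle, 0.09 in *Usp15*-deficient cerebellum and 0.13 in wild-type cerebellum. For all clusters it was 0.20, 0.20, 0.14 and 0.16, in the same order. The members are brighter than the typical cluster, and the part of brightness in their spread was not tested. The median level of the members was 9.54, 9.51 and 9.46 in *Usp15*-deficient muscle and 9.26, 9.54 and 9.52 in wild-type muscle, and 8.03, 8.09 and 8.02 in *Usp15*-deficient cerebellum and 7.89, 7.99 and 7.95 in wild-type cerebellum. In wild-type muscle the members' median differed by 0.28 between the lowest and highest arrays while that of the slow-fibre genes differed by 4.41. Against the single wild-type muscle array with slow-fibre signal, the members' median change in *Usp15*-deficient muscle was -0.07, with 19 positive and 41 negative, and the median difference of that array from wild-type cerebellum was 1.27. The part of fibre type in the members' muscle values was not tested.

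**Figure D5:**
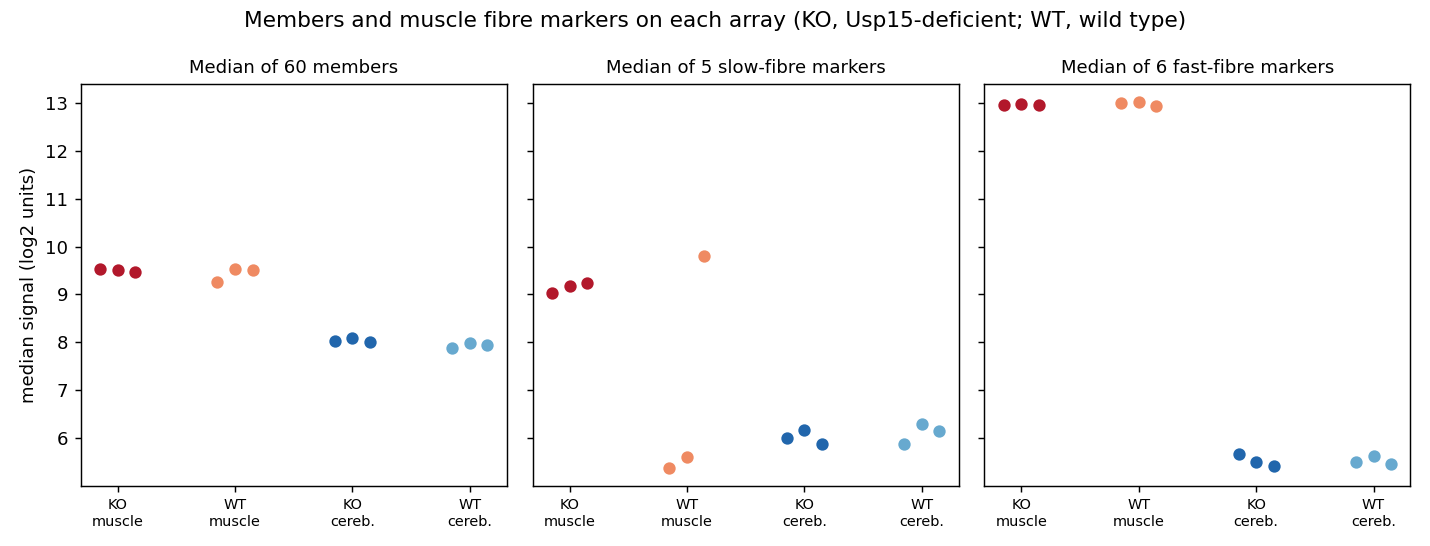
Median log2 signal per array of the 60 members (left), 5 slow-fibre genes (middle) and 6 fast-fibre genes (right). The members separate the tissues on every array, at 9.26 to 9.54 in muscle and 7.89 to 8.09 in cerebellum, whereas the slow-fibre genes are low on 2 wild-type muscle arrays.

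At the low end of the signal, *Cox7b2* lay at or below the dim mark in muscle (5.01), and *Ndufa1*, *Ndufa7*, *Cox7a2*, *Cox7b* and *Cox7b2* lay at or below it in cerebellum (5.79). The gene-level difference of *Cox7a2* between tissues, 1.29 ± 0.15 in *Usp15*-deficient mice and 1.77 ± 0.15 in wild type, therefore rests on dim cerebellum values. Its probe set 5408305 read 10.58, 11.13 and 11.09 in *Usp15*-deficient muscle and 10.83, 11.08 and 11.27 in wild-type muscle, against 9.88, 10.07 and 9.83 in *Usp15*-deficient cerebellum and 9.68, 9.70 and 10.25 in wild-type cerebellum, and was higher in muscle by 1.0 in *Usp15*-deficient mice and 1.18 in wild type.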

How the data were processed

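Biotin-labelled targets from total RNA (Isogen II) of skeletal muscle and cerebellum were hybridised to 12 exon arrays (Affymetrix), 3 for each group. The deposited values are log2 signals that the authors summarised at the gene level (23332 clusters) and the exon level (229581 probe sets). The background correction, normalization, software and genome build of the arrays were not given in the sources used here, and depth has no meaning for arrays. The array medians differ between tissues, so that differences between tissues depend on the scale.

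Symbols came from the platform annotation, in which 14996 clusters have 1 symbol, 1019 several and 7317 none here. All 60 members were matched by gene number to RefSeq and 0 symbols changed. The members, lists and tests were chosen with earlier results of these data known.

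Differences of log2 values were tested two-sided by limma 3.58.1 (R 4.3.3, functions lmFit and eBayes), with p-values adjusted over all clusters or all probe sets after Benjamini and Hochberg and a threshold of 0.05, on the 6 arrays of a tissue for genotype and on 12 arrays with 4 group means for the tissue differences and the interaction. A probe set was tested after subtracting, array by array, the gene-level value of its symbol, or the median of the gene's probe sets where it had none. Of 467 probe sets of members, 5 that equalled their gene-level value were left out. Ratios of isoforms were compared with an exact permutation test of the tissue within genotype. Both tests were checked on simulated data. Intervals are at 95%.

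Members named were the isoform pairs, complex II, *Atp5b*, *Ndufa11*, per complex the 3 largest and the smallest wild-type tissue differences, the 5 higher and 5 lower members of smallest p for genotype and the 3 of smallest p for the interaction, and for probe sets those of *Atp5c1* and *Ndufa11* and the largest called deviation per complex. Members and probe sets outside this rule were named after their values were seen, as for *Atp5j2* and the probe sets of *Cox7b* and *Cox7a2*.

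For same-numbered cerebellum arrays of the 2 genotypes the deviations from the group means correlated at 0.218, 0.203 and 0.103. The numbers may therefore pair them, a pairing that comes from the data alone. The genotype p-values and intervals given above do not use this pairing, which entered only the alternative with the replicate number as a block. The alternatives were the replicate number as a block, all 12 arrays or only those of a genotype, quantile normalization, median centring, a trended and robust prior (statmod 1.5.0), leaving out the dimmest 25% and leaving out each array. Exon-level medians, the single wild-type muscle array the exon-level mark and the bounds for *Cox8b* were chosen after seeing the data.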

Additional observations from a re-analysis of the deposited data

How the results depend on the processing

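With 3 arrays a group, signal near the dim mark and an unstated normalization limit these values. Genotype and interaction called 0 members under every alternative run. Between 47 and 53 members were called higher in muscle, not always the same ones. Of the members called in either direction, quantile normalization lost 5 in each genotype and gained 3 in *Usp15*-deficient mice and 4 in wild type, leaving out *Usp15*-deficient cerebellum array 2 lost 5, and the replicate block lost 2 in *Usp15*-deficient mice (48 higher and 5 lower) and 0 in wild type. Outside cerebellum the replicate numbers did not pair the arrays (0.305, 0.064 and 0.16 for genotype in muscle). Members called lower in muscle fell to 1 in each genotype under quantile normalization and median centring, which change the scale by construction, and lay between 3 and 5 in *Usp15*-deficient mice with an array left out (3 without *Usp15*-deficient muscle array 3 or cerebellum array 2 or 3). The members' tissue median was 1.86 in wild type and 1.83 in *Usp15*-deficient mice with centring, 1.10 in *Usp15*-deficient mice with quantile normalization and 1.12 to 1.19 there with an array left out. The cerebellum genotype median was 0.00926 with quantile normalization.

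Under quantile normalization the wild-type tissue difference was 0.21 for *Cox7b*, 0.052 for *Cox7b2* and 0.54 for *Ndufaf7*, and under centring 0.11 for *Cox7b*, 0.028 for *Ndufaf2*, 0.58 for *Ndufaf7* and 0.23 for *Atp5j2*. In *Usp15*-deficient mice *Cox7b* was 0.35 with quantile normalization and 0.29 with centring. *Ndufaf7* ranged from -0.228 to 0.066 with an array left out, the highest without wild-type muscle array 1, which gave, past the threshold, -0.67 for *Atp5j2*. Leaving out wild-type muscle array 2 gave 0.44 for *Cox4i2*, past the threshold. *Ndufaf2* lost its call on the 6 wild-type arrays alone (-0.64), and without wild-type muscle array 1 (-0.49) or 3 (-0.60) or wild-type cerebellum array 2 (-0.64) or 3 (-0.46). *Cox7b* lost its call in *Usp15*-deficient mice without muscle array 3 (-0.25) or any 1 of the 3 cerebellum arrays (-0.39 to -0.36). The cerebellum genotype change of *Atp5pb* ranged from -0.228 to 0.018, the highest without wild-type array 3.

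The ratio of *Cox7b2* to *Cox7b* ranged from -0.50 to -0.31 with an array left out, with an exact permutation p of 0.0625 for the paired shift of -0.39. That of *Atp5g1* to *Atp5g2* was -0.13 with quantile normalization and 0.13 to 0.23 with an array left out. That of *Atp5g1* to *Atp5g3* was 0.06 with quantile normalization and 0.23 to 0.35 with an array left out, with an exact permutation p of 0.125 for the paired shift of 0.29. Probe sets called higher relative to their gene fell to 19 with the median of the gene as the reference. The cause of these changes was not tested.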
